A study of Homo sapiens with 5 samples.

Results

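Of 10181 replication origins called by ini-seq 2 after a 15-minute reaction, 498 (4.89%) shared no base with any of the 23905 origins called after 3 hours. They are called lost origins here, and the other 9683 retained origins. The members were chosen by the positions in both lists alone, so the absence of a 3-hour origin over them is the rule and not a result, and the distance to the nearest 3-hour origin is given as a description. Lost means absent from the list of the longer reaction. The lists come from separate incubations of nuclei, and no nucleus was followed from one time to the other.

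In ini-seq 2, nuclei of EJ30 cells, an established human bladder carcinoma line, were taken after mimosine arrest in late G1 phase and incubated in cytosolic extract of HeLa cells with Br-dUTP in place of dTTP. Copied DNA became heavy on one strand and light on the other (HL), uncopied DNA stayed light on both (LL), and the sequenced HL and LL fractions gave each called interval its value. The 3-hour list pools 2 biological replicates and holds the efficiency, HL/(HL + LL), from 0.8 upwards, whereas the 15-minute list, whose number of replicates is not given in the sources used here, holds a Z-score with no efficiency beside it. Short nascent strand sequencing (SNS-seq) of the same line gave peaks for strands of 0.5 to 2 kb (147657 peaks) and of 2 to 4 kb (184966 peaks), while the genomic DNA input was not analysed here. Each reaction is 1 list without read counts, so no spread between replicates could be computed, the reads behind an origin are not known, and the 95% intervals of shares cover counting error only.

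Human replication starts at sites licensed with the MCM helicase before S phase, and the sites that fire early lie mostly in open, GC-rich chromatin around promoters. CpG islands are stretches in which the CpG dinucleotide, depleted elsewhere in the genome by methylation and mutation, remains frequent, and most promoters of widely used genes lie in one. G-quadruplex (G4) motifs, runs of G that can fold into stacked tetrads, are common in such DNA and have been linked to origins.

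Most lost origins met the criterion of a CpG island, and a minority was GC-rich but poor in CpG. Sequences of both kinds are shown because the comparison with retained origins turns on base composition. Each run holds 120 bases outside untranslated and non-coding exons on hg38, 5′ to 3′, with each CpG in capitals. The first 3 runs are from the lost origins with the highest Z-scores. They lie at the start of SLC7A5, which encodes a large neutral amino acid transporter, in the sequence beside ADGRL1, an adhesion receptor gene, and at the start of BEND7.
SLC7A5, chr16:87869508-87869627, plus strand: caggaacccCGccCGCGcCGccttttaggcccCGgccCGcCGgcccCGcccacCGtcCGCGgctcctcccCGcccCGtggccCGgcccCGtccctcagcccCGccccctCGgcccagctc
ADGRL1, chr19:14206641-14206760, plus strand: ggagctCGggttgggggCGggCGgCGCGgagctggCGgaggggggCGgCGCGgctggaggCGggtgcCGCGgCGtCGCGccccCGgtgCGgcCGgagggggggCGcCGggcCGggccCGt
BEND7, chr10:13529015-13529134, plus strand: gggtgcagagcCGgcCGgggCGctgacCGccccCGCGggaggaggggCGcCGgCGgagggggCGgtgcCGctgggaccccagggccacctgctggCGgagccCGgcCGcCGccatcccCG
In these runs, 101, 106 and 102 of the 120 bases were G or C, and there were 17, 22 and 16 CpG dinucleotides. The next 3 runs come from lost origins with a CpG ratio under 0.6, all from 1 stretch of chromosome 16 in and near CACNA1H, the gene of a T-type calcium channel. The sites labelled as beside CACNA1H were intergenic. Their nearest gene start was that of ENSG00000273551, 14254 and 15554 bp away.
CACNA1H intron, chr16:1172841-1172960, plus strand: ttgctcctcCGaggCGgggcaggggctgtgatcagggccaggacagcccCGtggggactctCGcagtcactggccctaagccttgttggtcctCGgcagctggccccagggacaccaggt
First site beside CACNA1H, chr16:1134291-1134410, plus strand: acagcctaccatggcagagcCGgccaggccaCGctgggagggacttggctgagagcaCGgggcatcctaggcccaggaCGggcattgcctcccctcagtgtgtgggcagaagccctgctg
Second site beside CACNA1H, chr16:1132991-1133110, plus strand: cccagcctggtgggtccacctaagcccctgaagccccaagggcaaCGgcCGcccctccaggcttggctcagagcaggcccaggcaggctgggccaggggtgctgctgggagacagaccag
They held 82, 81 and 85 G or C bases but 5, 4 and 2 CpG dinucleotides.

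GC content over the whole interval ran from 57.3% to 86.7% in the lost origins, with a median of 76.6% (95% interval of the median 75.9 to 77.0). In the retained origins it ran from 50.2% to 84.9%, with a median of 74%. The ranges overlapped almost entirely, and the medians differed by 2.61 percentage points. The median was higher in the lost origins on 20 of the 21 chromosomes with at least 10 of them. Of the windows compared, the whole interval gave the largest difference. In the central 100 bp the medians were 77% and 76%. In the 2 kb around the centre they were 62.4% and 62.7%, in the opposite order, and 9 to 10 kb away they were 45.3% and 46.7%.

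Part of this difference came from the upper end of the GC range. Among origins under 80% GC, 407 lost and 9459 retained, the medians were 75.2% and 74%. A GC content of 80% or more was found in 91 lost origins (18.3%, exact Clopper-Pearson 95% interval 15.0 to 22.0%) and in 224 retained origins (2.31%). The difference was 15.96 percentage points (Newcombe 95% interval 12.8 to 19.6), and the share was higher in the lost origins on all 21 chromosomes compared. Read the other way, the share of 15-minute origins that were lost was 2.77% between 74 and 76% GC, 5.08% between 76 and 78%, 10.4% between 78 and 80%, 26.0% between 80 and 82% and 44% (22 of 50, interval 29.99 to 58.7%) from 82% upwards. The share was also higher at the low end of the range. Between 65 and 70% GC 52 of 994 origins were lost (5.23%, interval 3.93 to 6.80%), against 2.54% between 70 and 72% and 2.93% between 72 and 74%. Below 65% GC, 3 of 27 origins were lost (11.1%, interval 2.35 to 29.2%).

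**Figure D1:**
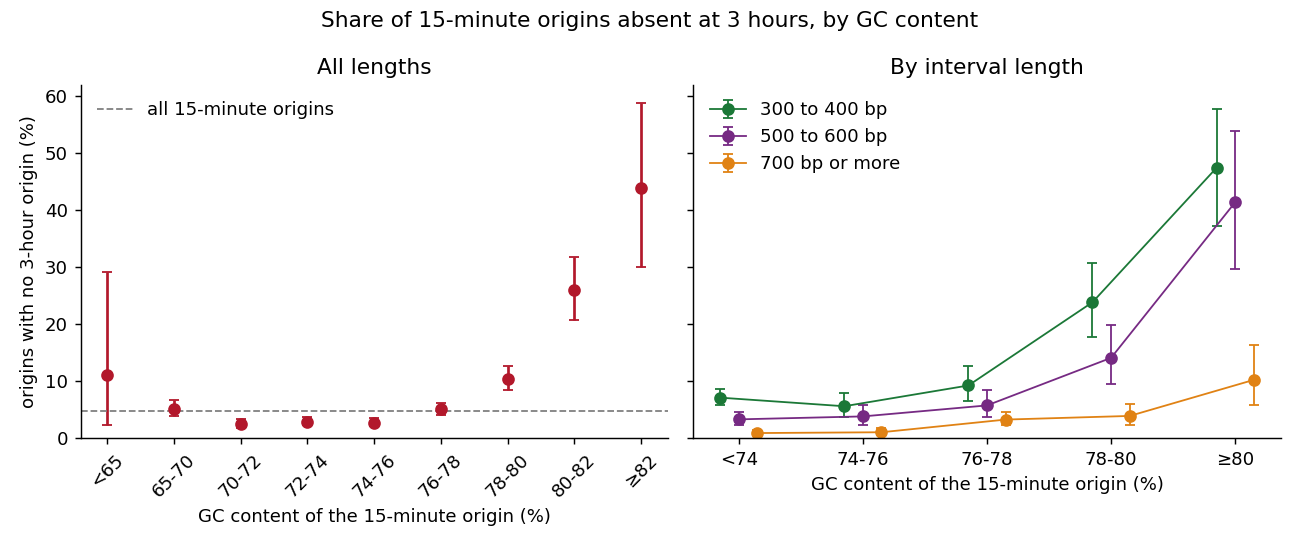
Share of 15-minute origins with no 3-hour origin (vertical axis, percent) against the GC content of the interval (horizontal axis, percent), for all lengths on the left and for 3 length classes on the right. Bars are exact Clopper-Pearson 95% intervals and the dashed line is the share of all 15-minute origins, 4.89%; the share rose from 2.77% at 74 to 76% GC to 44% at 82% and above, and within each length class it was highest from 80% GC upwards.

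Lost origins were also short, and a short interval has fewer bases that could be shared. Their length ran from 300 to 1700 bp with a median of 400 bp, against 300 to 5800 bp and a median of 700 bp in the retained origins, and the median was lower on all 21 chromosomes. The smallest length in the list, 300 bp, was that of 162 lost origins (32.5%) and 1210 retained origins (12.5%). The rise with GC content was present within length classes. Among intervals of 300 to 400 bp, 7.16% were lost below 74% GC and 47.5% (47 of 99) from 80% upwards. Among those of 500 to 600 bp the shares were 3.35% and 41.4% (29 of 70), and among those of 700 bp or more 0.947% and 10.3% (15 of 146). At equal lengths of 300, 400 and 500 bp, the median GC content of the lost origins was higher by 1.67, 3.50 and 3.40 percentage points.

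Over whole called intervals, the 3-hour list itself held few origins of such composition. Its highest GC content was 82.5%, against 86.7% in the 15-minute list, and 25 of its 23905 origins reached 80% GC, against 315 of the 15-minute origins. All 25 were also called at 15 minutes, and 8 of them had an efficiency of 1. Of the 315, however, 224 shared a base with a 3-hour origin. The median length was 700 bp in both lists, but 1100 bp for the 3-hour origins over retained ones. A low count of GC-rich intervals at 3 hours is thus no measure of how much such DNA they cover.

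The lost origins that just failed to overlap showed the same composition at close range. Between 26 lost origins and the nearest 3-hour origin there was no base at all, so the rule separated them only at a shared border. The lost interval had the higher GC content in 24 of these 26 pairs, with a median of 77.3% against 68.04% in the 3-hour origin at its edge. The median GC content of all 3-hour origins was 67.0%, and for the 3-hour origins over retained ones it was 70.2%. In the whole 15-minute list it was 74.1%, so the lists as a whole differed in the same direction as the abutting pairs. No such count of pairs was made for retained origins. Just on the other side of the rule, 55 retained origins shared only 100 bp with a 3-hour origin; their median GC content was 75.8%, their median Z-score -0.25 and their median length 400 bp, against 77.3%, -0.09 and 500 bp in the 26 abutting lost origins. Among all retained origins, 8152 (84.2%) were covered completely and 266 were covered over under 50% of their bases.

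**Figure D2:**
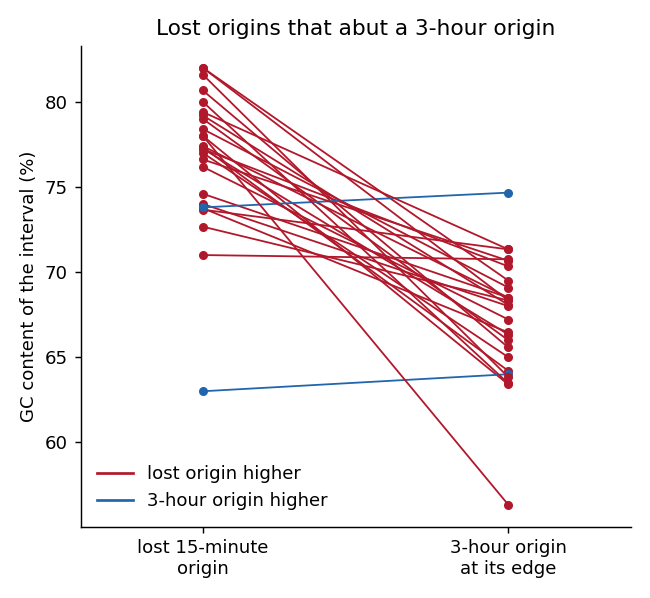
GC content (vertical axis, percent) of the 26 lost origins with no base between them and a 3-hour origin, joined by a line to that 3-hour origin. Red lines mark the 24 pairs in which the lost origin was the higher, blue lines the other 2; the axis does not start at 0.

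Borders of this kind are printed here with the 60 bases of the lost origin in capitals and the 60 bases of the abutting 3-hour origin in lower case, on the plus strand. The first lies at GDF11, the gene of a ligand of the TGF-beta superfamily, and the second at USP7, the gene of a deubiquitinating enzyme.
GDF11, chr12:55743541-55743660, plus strand: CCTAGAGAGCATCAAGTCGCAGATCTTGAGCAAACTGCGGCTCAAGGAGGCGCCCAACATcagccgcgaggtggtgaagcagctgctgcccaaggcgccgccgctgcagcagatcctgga
USP7, chr16:8962941-8963060, plus strand: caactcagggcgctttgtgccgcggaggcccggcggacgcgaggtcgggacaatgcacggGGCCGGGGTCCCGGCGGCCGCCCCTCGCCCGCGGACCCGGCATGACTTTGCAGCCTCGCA
At GDF11 the lost origin, chr12:55743101-55743600, contained the gene start and had a GC content of 81.6% and a Z-score of 2.39. The 3-hour origin began at the next base, ran to 55744200, and had a GC content of 63.8% and an efficiency of 0.866. At USP7 the lost origin, chr16:8963001-8964300, covered 1300 bp with a GC content of 82% and a Z-score of 1.98, and the 3-hour origin before it had a GC content of 68.3% and an efficiency of 0.931. Another border, at the start of HS3ST6, a heparan sulfate sulfotransferase gene, separated a lost origin of 80% GC (chr16:1918001-1918700) from a 3-hour origin of 63.5% GC and an efficiency of 0.833. Over the whole intervals the GC-richer piece of each of these pairs was the one called at 15 minutes only. The bases right at the border need not show this. In the printed GDF11 run 33 of the 60 bases of the lost origin and 42 of the 60 bases of the 3-hour origin were G or C, and in the USP7 run 48 and 43.

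Windows inside retained origins were compared in the same way. Their coverage comes from the same 2 lists of positions as the rule, so the values are a description and no independent support. The 15-minute intervals consist of 100 bp windows, and 4285 of the 76443 windows of retained origins (5.61%) lay outside every 3-hour origin although the origin as a whole was retained. That share was 3.65% for windows between 70 and 75% GC and 3.58% between 75 and 80%. It was 6.29% between 80 and 85%, 15.5% between 85 and 90% and 33.2% (161 of 485, interval of the covered share 62.4 to 71.0%) from 90% upwards. Windows at the AT-richer end were also uncovered more often, with 26.5% below 50% GC. The rise at high GC was about as large without the first and last window of each origin, at 14.6% and 31.6% in the top 2 classes, whereas below 50% GC the share was then 16.7%. Windows of one origin adjoin each other and are not independent. The caller joined windows across gaps, so a window inside a called interval need not itself have passed its limit on HL/LL. Covered means only that the window lay within a 3-hour interval.

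**Figure D3:**
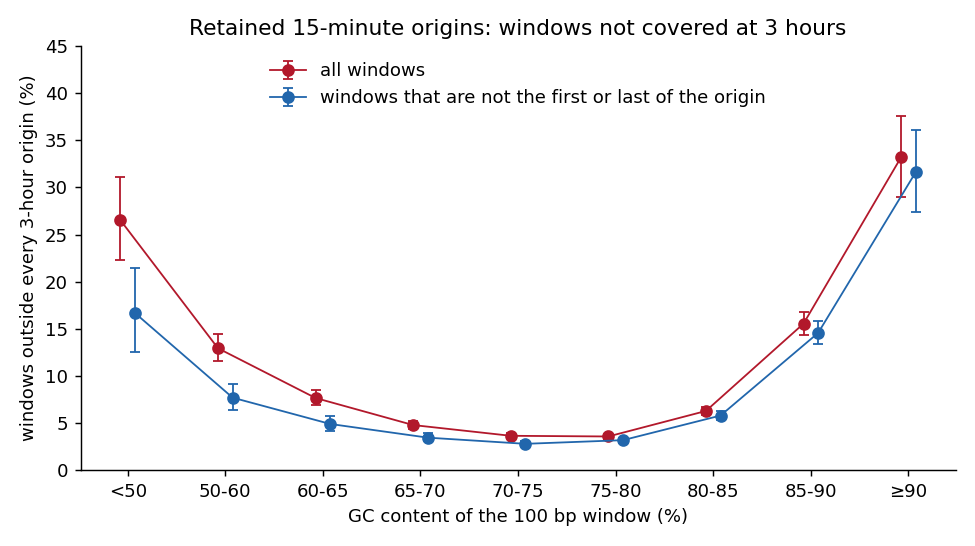
Share of 100 bp windows of retained origins that lay outside every 3-hour origin (vertical axis, percent) against the GC content of the window (horizontal axis, percent), with exact Clopper-Pearson 95% intervals. Red points are all windows and blue points leave out the first and last window of each origin; the share was lowest between 70 and 80% GC and reached 33.2% and 31.6% from 90% upwards.

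The median Z-score of the 15-minute reaction differed little between lost and retained origins, and the scores spread further in the lost ones. It ran from -2.05 to 2.87 with a median of 0.06 in the lost origins, and from -2.05 to 2.56 with a median of 0.03 in the retained ones. The median was higher in the lost origins on 9 of 21 chromosomes and lower on 12. The standard deviation over origins was 1.12 against 0.993. A Z-score of 2 or more was found in 21 lost origins (4.22%) and 93 retained origins (0.960%), a difference of 3.26 percentage points (Newcombe interval 1.80 to 5.41), although on single chromosomes the share was higher on 11 and lower on 10. With the list cut into 10 classes of about equal size by Z-score, the share lost was 7.87% in the highest class, 5.89% in the lowest and between 3.27% and 5.48% in the others. Z-score, length and GC content moved together in the list: the highest class had a median GC content of 78.2% and a median length of 900 bp, and the lowest 70.3% and 500 bp. Among intervals of at most 400 bp the median Z-score of the lost origins exceeded that of the retained ones by 0.31. This did not hold at every length. At equal lengths of 300, 400 and 500 bp the difference was 0.32, 0.59 and 0.38, but at 600 bp it was -0.30. At 700 and 800 bp it was 0.02 and 0.17.

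The highest Z-score of the whole 15-minute list belonged to a lost origin. It covered the start of SLC7A5 (chr16:87869401-87869700, 300 bp, GC 80.7%, Z-score 2.87), 42100 bp from the nearest 3-hour origin. The next were an intergenic site 314 bp from the ADGRL1 start (chr19:14206501-14206900, GC 85.5%, Z-score 2.76) and the start of BEND7 (chr10:13528301-13529400, GC 83.1%, Z-score 2.67), which was 228100 bp from any 3-hour origin. The lost origin with the highest GC content of the whole list, 86.7%, lay in an exon within the spans of the creatine transporter gene SLC6A8 and the kinase gene PNCK (chrX:153688001-153688300, Z-score 2.64). In it 22.7% of the bases were in short tandem repeats.

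The sites that followed in Z-score lay in several classes of gene. In TLK2, the gene of a kinase of chromatin assembly, the lost origin chr17:62478501-62479100 (Z-score 2.58) lay 19843 bp from the gene start. The start of KMT2C, a histone H3 lysine methyltransferase gene, held one of 900 bp (chr7:152435901-152436800, Z-score 2.53). One lay in GATA4, the gene of a transcription factor of heart and endoderm, 15642 bp from its start on chromosome 8 (Z-score 2.45). Another lay 199 bp from the start of BMI1, a gene of Polycomb repressive complex 1 (chr10:22320501-22320900, GC 83.8%, Z-score 2.40). Of the 10 lost origins with the highest Z-scores, each overlapped a 2 to 4 kb SNS-seq peak, and the one at SLC6A8 alone lacked a 0.5 to 2 kb peak, the nearest being 281 bp away. These genes were named by rank and not by function, so no theme was tested.

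Lost origins held a gene start less often than retained ones. A gene start of GENCODE 44 lay inside 172 lost origins (34.5%, interval 30.4 to 38.9%) and 5375 retained origins (55.5%), against 54.5% of all 15-minute origins. The difference was -21.0 percentage points (Newcombe interval -25.1 to -16.6), and the share was lower on 19 of 21 chromosomes. Starts of protein-coding genes gave 29.3% and 49.5%, starts of any annotated transcript 55.6% and 79.8%, and a gene start within 1 kb of the interval 56.6% and 75.97%. Among intervals of at most 400 bp the shares were 23.7% and 33.2%, a narrower difference in the same direction. Of the lost origins without a gene start, 154 lay in a coding exon (30.9% of all lost, 21.8% of all retained), 72 in another exon (14.5% and 12.4%), 57 in an intron (11.4% and 4.81%) and 43 between genes (8.63% and 5.39%). The median distance to the nearest protein-coding gene start was 1134 bp in lost and 7 bp in retained origins.

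The 198 gene starts inside lost origins comprised 152 of protein-coding genes and 39 of long non-coding RNA genes, and 6 of the 498 lost origins held the starts of more than 1 coding gene. The 6612 gene starts inside retained origins comprised 5193 and 1252 of these kinds, a similar make-up. Starts of more than 1 coding gene lay in 387 of the 9683 retained origins, which were longer, and these counts were not compared at equal length. Lost origins with a coding start and a high Z-score included those at PDPK1, the kinase that activates AKT (GC 81.2%, Z-score 2.08), the adenylyl cyclase gene ADCY9 (GC 81.0%, Z-score 1.90) and PRKCQ, the gene of protein kinase C theta (GC 81.0%, Z-score 1.63). Others lay at the phosphate transporter gene SLC20A2 (Z-score 1.89), at GALNT12, a gene of O-linked glycosylation (GC 81.5%, Z-score 1.73), and at APCDD1, a gene of a Wnt inhibitor (GC 81.2%, Z-score 1.71), where the nearest 3-hour origin was 100 bp away. Gene families were counted by patterns of their symbols, which do not take in every member of a family. Starts of genes with zinc finger symbols of the ZNF type lay in 3 lost origins (ZNF185, ZNF25 and ZNF843; 0.602% of lost and 0.929% of retained). Starts of genes with symbols of developmental transcription factor families also lay in 3 (0.602% and 0.609%), the coding genes FOXI3 and IRX1 and the non-coding FOXO1B. No microRNA start lay in a lost origin, and such starts lay in 81 retained origins (0.837%). Starts of histone, cytosolic ribosomal protein, protocadherin and keratin genes lay in no lost origin and in 3, 7, 0 and 2 retained origins, too few to compare. Starts of antisense or long intergenic RNA genes lay in 14 lost origins (2.81%) and 552 retained origins (5.70%).

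Most lost origins, 345 of 498, were more than 5 kb from any 3-hour origin. The distance ran from 0 bp to 3701800 bp, with a median of 27800 bp and an interquartile range of 3400 to 114250 bp. By distance, 26 abutted a 3-hour origin, 39 were within 1 to 500 bp, the distance over which the caller joined windows, 88 between 500 bp and 5 kb, 137 up to 50 kb, 176 up to 500 kb and 32 beyond that. For retained origins the nearest 3-hour origin that did not overlap them was 21900 bp away in the median. No 3-hour origin other than an overlapping one lay within 100 kb of 136 lost (27.3%) and 1733 retained origins (17.9%). Ini-domains, groups of at least 6 3-hour origins with gaps of up to 100 kb, held 31.5% of the lost and 55.9% of the retained origins, and the share was lower for lost origins on 20 of 21 chromosomes. An ini-domain is built from 3-hour origins, which lost origins lack by the rule. The 3-hour origin nearest to a lost origin had a median efficiency of 0.903, against 0.928 for the one nearest to or over a retained origin and 0.873 for all 3-hour origins.

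**Figure D4:**
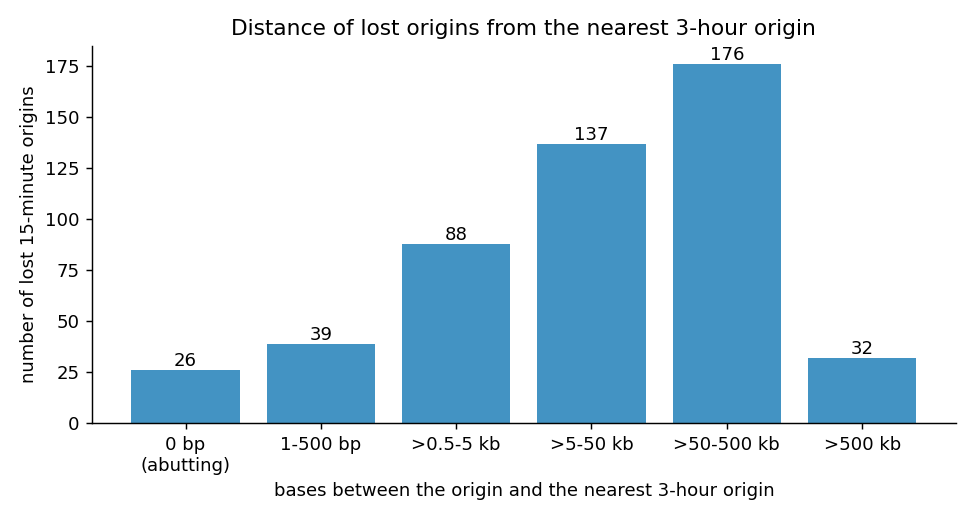
Number of lost origins (vertical axis) in 6 classes of distance, in bases, to the nearest 3-hour origin (horizontal axis, classes of unequal width). The 26 abutting origins and the 39 at 1 to 500 bp together make 65 of the 498, and the largest class, with 176, is that over 50 to 500 kb.

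The farthest lost origin covered the start of PTPRD, a receptor tyrosine phosphatase gene, on chromosome 9 (chr9:10612801-10613300, GC 77.2%, Z-score 0.91), 3701800 bp from a 3-hour origin. Next came an intron of PGK1, a glycolytic enzyme gene on chromosome X (3567100 bp, Z-score -0.18), an intergenic site on chromosome 13 (2876600 bp, Z-score -0.52) and the coding exon of MAGEE1 on chromosome X (1891500 bp, Z-score -1.68). The fifth covered the start of FMR1, the gene of an RNA-binding protein of neurons whose repeat expansion underlies fragile X syndrome (chrX:147911801-147912400, 1616000 bp, GC 73.0%, Z-score 0.38). The GC contents of these 5 isolated sites lay between 69% and 77.2%, and 3 of them were on chromosome X. Over the 6 distance classes the median GC content lay between 73.7% (over 500 kb) and 77.3%, and the share with a gene start between 18.2% (between 500 bp and 5 kb) and 45.5% (over 50 to 500 kb).

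The longest lost origins lay in or at annotated genes. They covered 1700 bp of CBARP, a gene of a calcium channel regulator, 100 bp from a 3-hour origin, 1600 bp each at HMGB3 and at INSM1, a transcription factor gene of neuroendocrine cells, and 1500 bp at GSG1L, the gene of an AMPA receptor partner. Their GC contents ran from 76.7% at GSG1L to 78.2% at HMGB3 and CBARP. Their Z-scores were 0.13, 1.95, -0.06 and -0.44 in that order, and the list's median was near 0. Each of these overlapped SNS-seq peaks of both fractions.

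SNS-seq peaks, which were called in another assay and were not used by the rule, lay over almost all lost origins. A peak of either fraction overlapped 492 of 498 lost origins (98.8%, interval 97.4 to 99.6%) and 9676 of 9683 retained origins (99.9%), and the share of all 15-minute origins was 99.9%. The difference was -1.13 percentage points (Newcombe interval -2.53 to -0.48). The 0.5 to 2 kb fraction gave 95.2% and 98.6%, and the 2 to 4 kb fraction 98.8% and 99.9%. Each of the 218 lost origins between 75 and 80% GC overlapped peaks of both fractions, and so did 90 of the 91 from 80% upwards, where the last had a 2 to 4 kb peak only. Between 65 and 70% GC the 0.5 to 2 kb fraction covered 36 of 52 lost origins (69.2%, interval 54.9 to 81.3%) and 871 of 942 retained origins (92.5%, interval 90.6 to 94.1%). Between 70 and 75% GC this fraction covered 128 of 134 lost origins (95.5%) and 4841 of 4895 retained origins (98.9%). The share of lost origins that it covered was thus lowest below 70% GC, but missing overlap was not confined to that range. Of the 6 lost origins without a peak, 5 were 300 bp long, none had a G4 motif, and all had a GC content between 63.0% and 69.0%. One covered the start of DTWD1 on chromosome 15, 98874 bp from a 0.5 to 2 kb peak, one in a coding exon of SHQ1 on chromosome 3, and 4 lay between genes.

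The CpG ratio, the observed number of CpG over that expected from the C and G content, had a median of 0.916 in the lost and 0.854 in the retained origins and was higher in the lost ones on 20 of 21 chromosomes. The criterion for a CpG island, a GC content above 50% and a ratio above 0.6, was met by 455 lost (91.4%) and 9287 retained origins (95.9%). The lost origins thus had the higher median and the larger share below the limit. The 43 that missed the limit had a median GC content of 70.3%, a median Z-score of -1.32 and a median length of 300 bp, and 1 held a gene start. Of these, 11 lay on chromosome 16, and 15 lay in introns. The 396 retained origins under the limit were similar in GC content (median 71.25%) and Z-score (median -1.29), with a median length of 400 bp. Among those 396, 52 held a gene start, 36 lay on chromosome 16 and 72 in introns. The 455 other lost origins had a median GC content of 77.0%, a median Z-score of 0.14 and a median length of 500 bp, and 171 held a gene start. Around CACNA1H on chromosome 16, between 1118001 and 1173100, 6 lost origins each had 5 or 6 others within 100 kb, with 33 to 40 3-hour origins also within 100 kb. Of these 6, 5 had CpG ratios between 0.225 and 0.586 and Z-scores between -1.64 and -1.34. The remaining one, in a coding exon of CACNA1H, had a ratio of 0.865 and a Z-score of 0.89.

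A G4 motif, searched on both strands as 4 G runs of 3 or more bases parted by 1 to 7 nt, was found in 352 lost (70.7%) and 7780 retained origins (80.3%). The direction depended on length. Among intervals of at most 400 bp the motif was found in 64.2% of the lost and 57.7% of the retained origins. Purine or pyrimidine tracts were rare. No lost origin had 75% or more of its bases as purines on one strand, which leaves an exact upper 95% limit of 0.738%. Among the retained origins 9 did (0.093%). That share lies below the upper limit for the lost origins, so the groups could not be told apart. A run of at least 30 purines or pyrimidines was found in 6 lost (1.20%) and 339 retained origins (3.50%). Lost origins were shorter, and the shares with such a run were not compared at equal length.

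Lost origins were spread unevenly over the chromosomes. On chromosome X 44 of 226 15-minute origins were lost (19.5%, interval 14.5 to 25.2%), against 454 of 9955 on the autosomes (4.56%). Chromosomes 18, 16, 10 and 8 followed with 9.60%, 9.43%, 8.81% and 8.07%, and chromosome 20 had the lowest share, 1.56%. On chromosome X the lost origins had a median GC content of 73.7% and the retained ones 73.4%. Without chromosome X the GC difference between lost and retained origins was 2.76 percentage points.

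**Figure D5:**
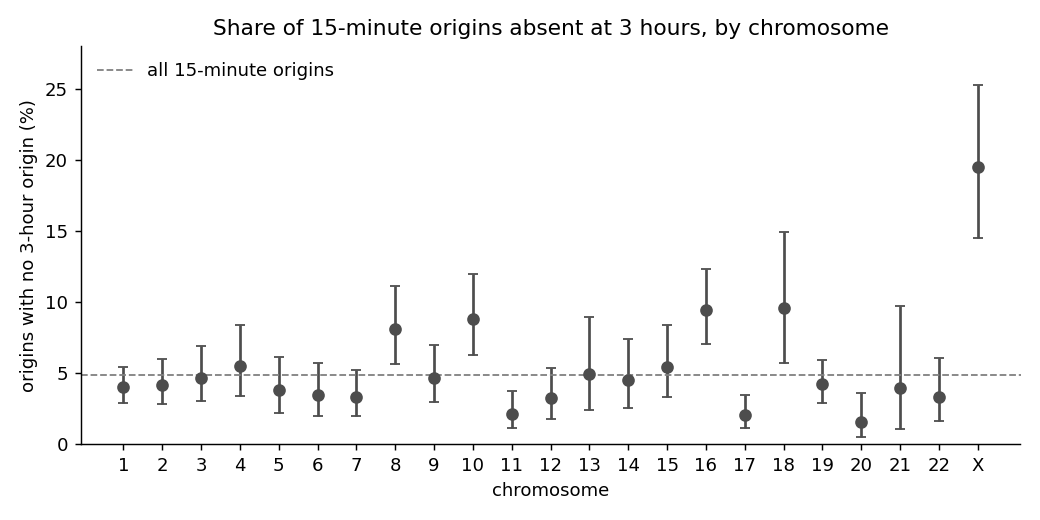
Share of 15-minute origins with no 3-hour origin (vertical axis, percent) on each chromosome (horizontal axis), with exact Clopper-Pearson 95% intervals; the dashed line is the share of all 15-minute origins, 4.89%. Chromosome X, at 19.5%, lies above every autosome, and chromosomes 8, 10, 16 and 18 lie between 8.07% and 9.60%.

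Along chromosomes 8, 10 and 16 the share lost was higher in the first 40 Mb, a limit chosen after the positions were seen. There 18.2% (20 of 110), 22.9% (19 of 83) and 15.7% (44 of 280) of the 15-minute origins were lost, against 4.35%, 5.34% and 1.75% on the rest of each chromosome. In these stretches of chromosomes 8 and 10 the 3-hour list held fewer origins than the 15-minute list. On chromosome 16 it outnumbered the 15-minute list by a smaller factor than on the rest. The efficiencies in the 3-hour list were higher in each stretch. It held 105, 72 and 463 origins there, against 110, 83 and 280 at 15 minutes, whereas the rest of the same chromosomes held 644, 873 and 616 against 299, 337 and 229. The median efficiency of 3-hour origins was 0.966, 0.971 and 0.907 in the first 40 Mb and 0.872, 0.872 and 0.859 on the rest. On chromosome X, with 293 3-hour origins, it was 0.939, against 0.873 over all chromosomes. The rest of chromosome 10 was uneven. Its stretch chr10:120000001-140000000 also had a high share lost, 13.9% (10 of 72), but a median 3-hour efficiency of 0.838. The GC content of the 15-minute origins moved less, with medians of 74.8%, 74.5% and 73.3% in the first 40 Mb and 73.8%, 74.2% and 74.5% on the rest. Chromosome 18 was not split in this way. Its highest share lost was in chr18:60000001-80000000, 17.4% (8 of 46), with a median 3-hour efficiency of 0.870. In chr18:1-20000000 the share was 12% (6 of 50) and the median efficiency 0.921. In the 2 stretches of 20 Mb between them the shares were 5.56% and 2.38% and the median efficiencies 0.9085 and 0.9005. The part of 3-hour efficiency in the absence of these origins was not tested.

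In bins of 20 Mb with at least 20 15-minute origins, 20 of 146 bins had no lost origin, and 20 had a share of 10% or more and held 183 of the 498 lost origins. The rise with GC content was present inside and outside these bins. Inside them 75.7% (28 of 37) of the 15-minute origins with 80% GC or more and 15.1% (155 of 1026) of the others were lost, and outside them 22.7% (63 of 278) and 2.85% (252 of 8840). The bins were picked by their share of lost origins, so the difference between the bin groups is a description.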

How the data were processed

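Positions of 4 deposited lists on hg38 were used with the hg38 sequence and GENCODE 44. The authors aligned reads with Bowtie2, scaled HL and LL counts of 100 bp windows to library totals, selected windows whose log2(HL/LL) reached 2, merged them across gaps of up to 500 bp and retained intervals with HL/(HL + LL) of at least 0.8. The authors deposited this efficiency as a fraction for the 3-hour list, although its heading calls it a Z-score, and a score, the Z-score over the list, for the 15-minute list. SNS-seq peaks were called with MACS2 against genomic DNA and hold positions only. Start and end were read as 1-based and inclusive.

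Overlap meant at least 1 shared base. GC content, CpG ratio, motifs and gene starts were computed per interval. Shares have exact Clopper-Pearson 95% intervals, differences of shares Newcombe intervals, and medians intervals from order statistics. No test between times was possible with 1 list each, and p-values over origins of 1 map are not given. Calculations were tested on simulated intervals and sequences. The members and lists were chosen with earlier results of these data known. Named sites were those with the 10 highest Z-scores, the 5 farthest from and the 5 nearest to a 3-hour origin, the 5 longest, the 5 with most other lost origins within 100 kb, and up to 25 with a coding start by Z-score. Some of these sites are not reported here, and a tie for the last place among the crowded ones was kept. Sites without a SNS-seq peak and the gene family members were named after their values were seen. Python 3.11.15 with pysam 0.24.0, pandas 2.3.3, scipy 1.17.1, numpy 2.4.6 and matplotlib 3.10.9 were used. Alternatives were other overlap rules, windows for GC content, length limits, SNS-seq fractions and motif settings.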

Additional observations from a re-analysis of the deposited data

How the results depend on the processing

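No paired analysis was possible because each reaction is 1 list. Of 29 alternatives over 10 results, 11 stayed within the counting interval or within 1.5 times the count, 17 moved further and 1 reversed. The alternative counted as reversed was GC content in the 2 kb around the centre (-0.275 percentage points). In the central 100 bp the difference was 1 point, and the cause was not tested. For shares, only the value in lost origins was judged, so a reversal against retained origins was counted as moved. This was so for G4 motifs in intervals of at most 400 bp (64.2% of lost, 57.7% of retained).

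A rule of under 50% of the interval covered gave 764 lost origins. With intervals of at most 400 bp the Z-score difference was 0.313, 23.7% of lost origins held a gene start and 64.2% a G4 motif. Gene starts were held by 29.3% counting protein-coding genes alone and by 56.6% within 1 kb, and G4 motifs with loops of up to 12 nt by 86.9%. Purine or pyrimidine runs of 30 nt were held by 1.20%. SNS-seq overlap was 99.6% within 5 kb, and 95.2% both for the 0.5 to 2 kb fraction alone and for a peak of each fraction. Without members within 500 bp the median distance was 42100 bp. Among alternatives chosen after seeing the data, transcript starts gave 55.6%, and leaving out the 20 Mb bins rich in lost origins gave 28.9% with a gene start and 22.7% lost from 80% GC upwards, which was 10.3% for intervals of 700 bp or more. Every share and difference kept its direction against the retained origins in these settings, except GC content in 2 kb and G4 motifs in short intervals. Depth per origin is unknown, so no limit from counts can be given.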

Other observations

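Repeats took a small part of the lost origins. Short tandem repeats covered a mean of 2.49% of their bases and 1.69% of those of retained origins, mirror repeats 4.90% and 3.37%, and inverted repeats 1.83% and 1.58%. Runs of 15 bases that occur at least 3 times on the same strand of the interval covered a mean of 2.47% and 1.02%, and in 8 lost and 27 retained origins they covered 50% or more of the bases. Such runs were present in 14.5% of lost and 12.2% of retained origins.

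Neighbouring lost origins occurred along the chromosomes. The next 15-minute origin was also lost after 62 of 492 lost origins (12.6%) and after 434 of 9666 retained origins (4.49%). Over the 146 bins of 20 Mb, the share lost had a Spearman correlation of 0.25 with the median efficiency of all 3-hour origins, of 0.26 with the share of them in the upper efficiency class, of 0.36 with the median efficiency of those also called at 15 minutes, of 0.16 with the number of retained origins per 3-hour origin, of 0.12 with the median Z-score of retained origins and of -0.01 with the median GC content of retained origins. Bins share the 2 lists, and these values are descriptions.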
